A study of Rattus norvegicus with 12 samples.

Results

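The genes described here are 9 interferon response genes, Irf7, Irf1, Rsad2, Mx1, Mx2, Ifit2, Oasl, Isg15 and Usp18, measured in bone of the rat skull roof, the calvaria. They were picked by name from the probes of the array, because in earlier results of the same arrays Usp18 and Oasl were higher and Rsad2 lower in injured bone than in control bone. They make up 9 of the 22718 genes tested and are carried by 11 of the 45598 probes on the array, since Rsad2 and Mx2 have 2 probes each. All 9 passed the detection filter, Oasl only through its signal in injured bone. The differences from control that chose them are given below as a description, with no test.

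Bone was taken 72 h after surgery from rats aged 10 weeks. In the laser group an 8 by 3 mm defect was cut by Er:YAG laser, whose infrared light removes mineralised tissue, at 20 Hz with 127 mJ per pulse. In the bur group a defect of the same size was cut with a rotating bur. In the control group the periosteum was lifted off and the bone left whole, although the design text calls these samples untreated. Each group had 4 arrays, and no strain or sex is given in the labels. All 10 osteocyte and osteoblast markers examined were well above background on all 12 arrays. The third control array stood apart from its group. On the first principal component (49.5% of the variance over all genes) it lay at 6.67, between the 8 injured samples (-53.1 to -7.43) and the other control arrays (55.5 to 122).

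Type I interferons bind a shared receptor on the cell surface, and its Janus kinases activate transcription factors that enter the nucleus with IRF9 and bind interferon-stimulated response elements. Interferon gamma has its own receptor and acts at gamma-activated sites. The induced genes block steps of viral growth, modify other proteins or damp the signal again. In mice, interferon beta is also known to limit the formation of osteoclasts, the cells that resorb bone.

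The RefSeq table of assembly GRCr8 held the promoters of 5 members, Rsad2, Irf7, Irf1, Oasl and Mx1, while Mx2, Ifit2, Isg15 and Usp18 were not in it. They are shown because Rsad2 and Oasl stood on opposite sides of control. Each line gives the 250 bases before the transcription start, 5′ to 3′ on the gene's own strand. Capitals mark a match to 1 of 2 motifs, searched on both strands of the 300 bases from 250 before to 50 after the start.
Rsad2, chr6:48788121-48788370, minus strand: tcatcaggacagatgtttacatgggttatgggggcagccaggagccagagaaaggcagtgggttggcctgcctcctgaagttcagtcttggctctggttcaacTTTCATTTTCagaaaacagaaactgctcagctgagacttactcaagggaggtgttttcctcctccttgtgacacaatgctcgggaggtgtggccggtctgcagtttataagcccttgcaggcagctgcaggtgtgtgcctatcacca
Irf7, chr1:205800024-205800273, minus strand: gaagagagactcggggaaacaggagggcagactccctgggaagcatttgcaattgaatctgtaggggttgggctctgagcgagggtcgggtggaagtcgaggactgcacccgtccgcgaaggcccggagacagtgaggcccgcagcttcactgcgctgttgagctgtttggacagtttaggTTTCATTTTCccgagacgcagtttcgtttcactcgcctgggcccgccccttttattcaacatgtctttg
Irf1, chr10:38417685-38417934, plus strand: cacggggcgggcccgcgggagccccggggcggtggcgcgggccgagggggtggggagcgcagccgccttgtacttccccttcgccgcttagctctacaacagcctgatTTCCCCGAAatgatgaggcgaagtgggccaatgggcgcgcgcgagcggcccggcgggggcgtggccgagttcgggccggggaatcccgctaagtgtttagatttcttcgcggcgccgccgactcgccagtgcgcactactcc
Oasl, chr12:47356293-47356542, minus strand: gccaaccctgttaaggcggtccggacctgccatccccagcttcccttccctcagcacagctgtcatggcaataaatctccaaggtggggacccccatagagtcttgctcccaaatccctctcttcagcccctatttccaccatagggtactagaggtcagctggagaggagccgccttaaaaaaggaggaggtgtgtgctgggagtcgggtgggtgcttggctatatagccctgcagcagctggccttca
Mx1, chr11:50294607-50294856, minus strand: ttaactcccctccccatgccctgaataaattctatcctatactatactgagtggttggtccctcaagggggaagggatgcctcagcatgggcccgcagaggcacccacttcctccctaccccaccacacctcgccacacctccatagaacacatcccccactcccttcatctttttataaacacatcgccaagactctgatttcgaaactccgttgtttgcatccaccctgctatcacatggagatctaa

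The letters searched for an interferon-stimulated response element were GAAA, then any bases NN, then GAAA, which 1312 of all 33469 promoter windows held (3.92%). Rsad2 held them on the opposite strand, as TTTCATTTTC at bases -147 to -138 from the start. Irf7 held the same letters, TTTCATTTTC, at bases -69 to -60. The letters searched for a gamma-activated site were TTCNNNGAA, present in 2970 windows (8.87%). Irf1 held them as TTCCCCGAA at bases -142 to -134. Oasl and Mx1 held neither run of letters in this window. None of these promoters held both motifs. A match here is a description of the sequence and no evidence that a factor bound it.

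Values below are log2 spot intensities set against the 75th percentile of their own array, so a difference of 1 is a 2-fold change and levels of different genes are not comparable. Differences are group means subtracted, with the standard error of a limma fit over all 12 arrays, 4 per group. The laser and bur arrays shared 1 slide and the control arrays lay on another, so slide and group cannot be told apart in any comparison with control. On the shared slide the bur arrays lay in row 1 and the laser arrays in row 2. Row and group thus cannot be told apart in the comparison of laser with bur bone. The array files place the probes on genome build rn4. Exon and untranslated region annotation of that build was not used here.

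The first members by role are the transcription factors. Irf7, known in mice as a main switch for type I interferon genes, was read by a probe at chr1:201456889-201456948. It measured 1.1, 2.18, 2.12 and 0.78 on the laser arrays and 2.76, 1.62, 2.32 and 0.10 on the bur arrays, against 0.75, 1.09, 1.22 and 1.61 on the control arrays. The 3 groups overlapped, and the lowest value of all was on a bur array. Irf7 differed from control by 0.38 (SE 0.52) in laser bone and by 0.53 (SE 0.52) in bur bone. The laser difference of Irf7 was 0.17 without the second laser array and 0.63 without the fourth, and the bur difference was 0.18 without the first bur array and 1.07 without the fourth.

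Irf1, a factor that interferon gamma induces, was read at chr10:39227520-39227579. It measured 0.91, 1.19, 0.86 and 1.01 on the laser arrays and 0.94, 1.24, 1.23 and 0.68 on the bur arrays, against 1.45, 1.1, 1.23 and 1.24 on the control arrays. The groups again overlapped, and the highest value was on a control array. The differences from control were -0.26 and -0.23 in laser and bur bone, each with an SE of 0.15. Without the fourth bur array the bur difference of Irf1 was -0.12.

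Among the antiviral effectors, Rsad2 encodes viperin, an enzyme that in humans makes a nucleotide that halts viral RNA synthesis. Its brighter probe, at chr6:44100787-44100846, measured 3.03, 1.46, 1.51 and 1.44 on the laser arrays and 1.69, 2.29, 0.91 and 1.45 on the bur arrays. On the control arrays it measured 5.0, 4.09, 2.93 and 5.12. Every bur array lay below every control array, while the first laser array stood above the third control array.

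Rsad2 thus differed from control by -2.43 in laser bone and by -2.70 in bur bone on the log2 scale (SE 0.51 each). A second, dimmer probe lies at chr6:44101951-44102010. It measured -3.86, -4.55, -4.39 and -4.66 on the laser arrays and -4.47, -3.62, -5.63 and -5.05 on the bur arrays, against -2.33, -3.13, -3.93 and -1.48 on the control arrays. The third control array was again the lowest of its group and overlapped with injured bone. In a fit over all 29775 probes, chosen after seeing the data, the dimmer probe differed from control by -1.65 in laser bone and -1.97 in bur bone. Both probes of Rsad2 thus gave the same sign.

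Mx1 and Mx2 are dynamin-like GTPases that block viruses inside the cell. Mx1, at chr11:37438580-37438639, measured 1.53, 2.76, 1.86 and 1.38 on the laser arrays and 2.87, 2.06, 2.29 and 0.01 on the bur arrays. On the control arrays it measured 0.04, 0.87, 1.40 and 0.28. All bur arrays but 1 lay above all control arrays, and that 1 lay below them. Mx1 was 1.23 above control in laser bone and 1.16 above control in bur bone (SE 0.56 each). Without the fourth bur array the bur difference of Mx1 was 1.76.

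The 2 probes of Mx2 had opposite signs. The brighter one, at chr11:37572657-37572716, measured 3.77, 3.56, 3.40 and 3.45 on the laser arrays and 3.80, 3.28, 3.56 and 3.10 on the bur arrays, against 3.95, 3.81, 3.65 and 3.91 on the control arrays. It differed from control by -0.29 in laser bone and -0.39 in bur bone (SE 0.16 each). The dimmer one, at chr11:37575743-37575802, measured -4.01, -4.0, -4.31 and -4.77 on the laser arrays and -3.48, -5.14, -4.14 and -6.01 on the bur arrays. On the control arrays it measured -6.59, -6.61, -5.14 and -5.82, and only 2 of these 4 readings were well above background. In the fit over all probes the dimmer probe differed from control by 1.77 in laser bone and 1.35 in bur bone (SE 0.50 each). The accession behind the dimmer probe was not matched in the RefSeq table, so no transcript was assigned to it, and no direction is given for Mx2 as a gene.

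Ifit2, whose human counterpart holds back the translation of viral RNA, was read at chr1:238565078-238565137. It measured -1.55, -1.03, -1.25 and -2.46 on the laser arrays and -1.83, -2.49, -1.43 and -2.99 on the bur arrays, against -2.59, -2.24, -2.25 and -1.64 on the control arrays. The control array with the highest value lay among the laser arrays. Ifit2 was 0.61 above control in laser bone, and in bur bone the difference was -0.01 (SE 0.38 each). The bur difference of Ifit2 had no stable sign, at -0.26 without the third bur array and 0.26 without the fourth.

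Oasl is an oligoadenylate synthetase-like protein, whose human counterpart strengthens the sensing of viral RNA. Its probe spans an intron at chr12:42958314-42959155. It measured -5.80, -3.92, -4.49 and -6.37 on the laser arrays and -4.94, -5.15, -4.52 and -6.34 on the bur arrays, against -7.59, -6.75, -8.29 and -7.30 on the control arrays. All 8 injured samples were above all 4 control samples, and the scanner software set Oasl well above background on none of the control arrays.

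For Oasl only a bound on the change can therefore be given. With the background correction of the scanner software, Oasl was at least 4.16-fold higher in laser bone and at least 3.90-fold higher in bur bone than in control bone. The dimmer side was set at the lowest signal well above background on each control array. The measured differences were 2.34 and 2.24 (SE 0.56 each). They depended on the background correction: with normexp they were 0.31 in laser bone and 0.07 in bur bone. In the authors' deposited table they were 0.77 in laser bone and 0.73 in bur bone. These values lie below the bound, so it holds only for the scanner software's correction.

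Isg15 and Usp18 form the ISG15 system. Isg15 encodes a small ubiquitin-like protein that is attached to other proteins, and Usp18 encodes the protease that removes it and also damps signalling at the type I interferon receptor. Isg15, at chr5:173034674-173034733, measured 1.11, 0.95, 1.26 and 0.67 on the laser arrays and 2.71, -0.32, 1.42 and -0.46 on the bur arrays. On the control arrays it measured -0.68, -1.15, 0.15 and 0.14. Every laser array lay above every control array, whereas 2 bur arrays lay above the control range and 2 within it. Isg15 was 1.39 above control in laser bone and 1.23 above control in bur bone (SE 0.61 each), and its SD was 0.25 over the laser arrays, 1.51 over the bur arrays and 0.64 over the control arrays. Without the first bur array the bur difference of Isg15 was 0.60.

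Usp18, on an unplaced stretch at chr4_random:1587472-1587531, measured -1.09, -0.28, -0.60 and -1.26 on the laser arrays and -0.48, -1.60, -0.22 and -1.89 on the bur arrays. On the control arrays it measured -3.66, -2.61, -1.76 and -2.95. Every laser array lay above every control array, and 1 bur array fell below the highest control array. Usp18 was 1.94 above control in laser bone and 1.70 above control in bur bone (SE 0.45 each).

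Against control, 2 of the 9 genes were called higher and 1 lower in laser bone, beside 22.3% of all genes called, and likewise in bur bone, beside 26.2%. The calls were Usp18, Oasl and Rsad2, the genes the choice was based on, so nothing is read from these counts. With no overlap between 4 injured and 4 control samples there were 3 genes in laser bone, beside 19% of all genes, and 2 in bur bone, beside 25.3%. The median difference of the 9 genes was 0.61 in laser bone, the value of Ifit2, and 0.53 in bur bone, the value of Irf7. Over all genes it was 0.02 and -9.68e-05. The counts without overlap and the medians use the differences that chose the members, so nothing is read from them either. Without the third control array Usp18 stood 2.27 above control in laser bone and 2.03 in bur bone, Oasl 2.07 and 1.98, and Rsad2 at -2.88 and -3.15. In the authors' deposited table the brighter Rsad2 probe differed from control by -1.79 in laser bone and -1.98 in bur bone. In the authors' deposited table Usp18 differed from control by 1.75 in laser bone and 1.57 in bur bone.

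**Figure D1:**
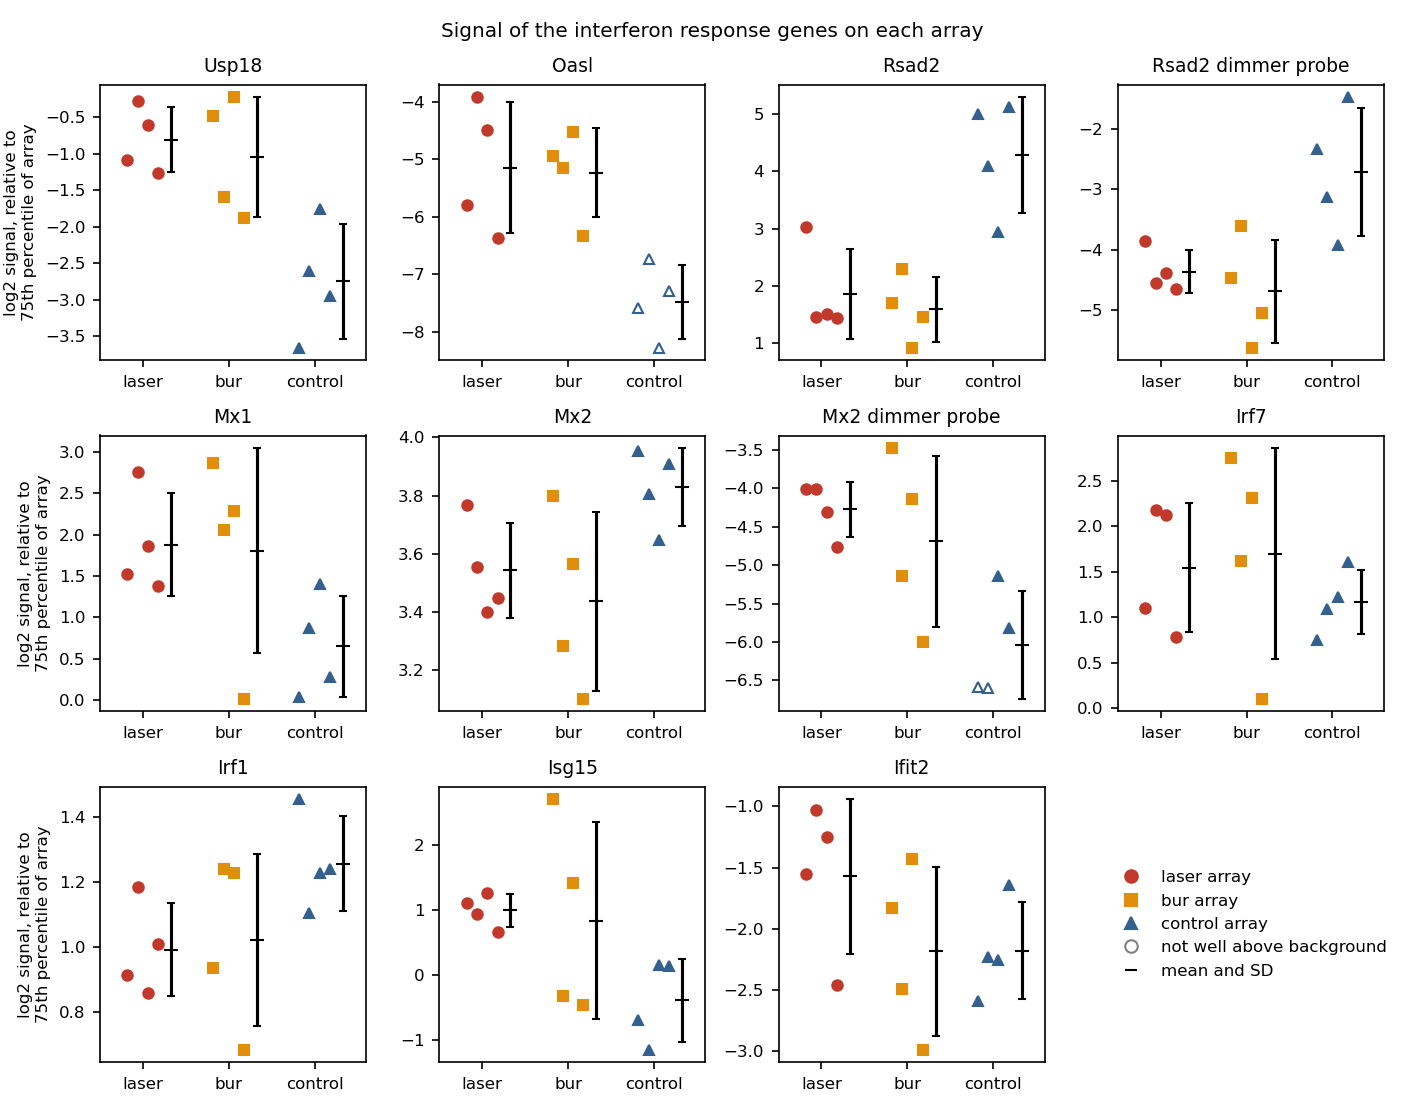
Log2 signal of each probe relative to the array's 75th percentile (vertical axes) on the 4 laser, 4 bur and 4 control arrays. Bars show the mean and SD, and open symbols were not well above background. Rsad2 lies lower in laser and bur bone than in most control samples, Usp18 and Oasl lie higher, and the 2 Mx2 probes run in opposite directions.

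The comparison of laser with bur bone asks whether the way of cutting mattered, and it was not used to choose the genes, although it shares both the laser and the bur arrays with the comparisons that were. No member differed between laser and bur bone in limma's test (adjusted p = 0.9998 for each of the 9), and none did at an unadjusted p under 0.05. Across all genes 0% were called, while 574 of 22718 (2.53%) had an unadjusted p under 0.05. In no member were the laser and bur arrays separate, beside 2.15% of all genes.

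The intervals show what size of difference these 8 arrays leave possible. Ifit2 had the biggest difference, 0.61 higher in laser bone, with a 95% interval of -0.22 to 1.44. For Usp18 the interval was -0.74 to 1.23 around 0.24, and for Oasl it was -1.12 to 1.31 around 0.09. Both intervals reach past 1, a 2-fold change, on the side of laser. For Rsad2 the interval was -0.85 to 1.39 around 0.27, for Isg15 -1.17 to 1.49 around 0.16 and for Mx1 -1.14 to 1.29 around 0.08. Irf7 was at -0.15 with an interval of -1.28 to 0.98. Mx2 and Irf1 were bounded most tightly, at -0.25 to 0.46 and -0.36 to 0.30. The genes with wide intervals are those whose arrays varied most within a group.

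**Figure D2:**
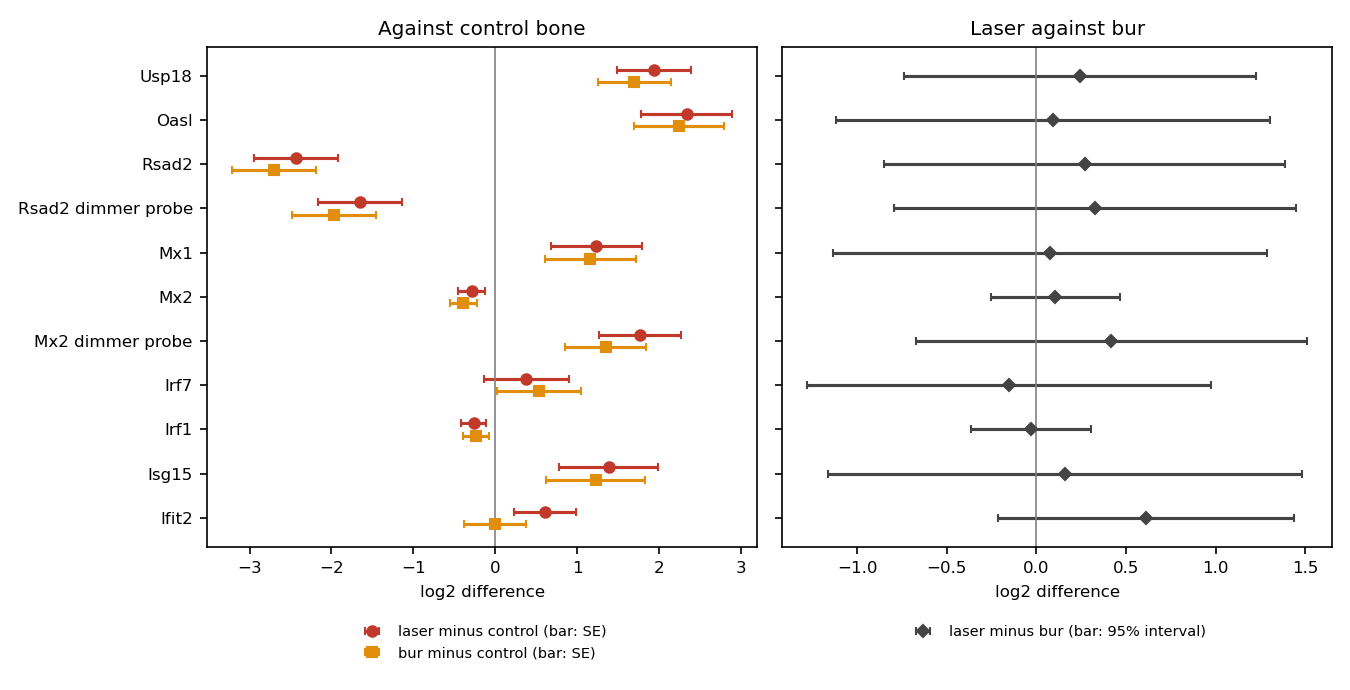
Log2 differences of the 11 probes, from the fit over all probes. The left panel shows laser minus control (circles) and bur minus control (squares) with SE, and the right panel laser minus bur with 95% intervals. Rsad2 is on the left of 0 and Usp18 and Oasl on its right in both comparisons with control, and every interval of laser minus bur includes 0.

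Within groups the members also varied from array to array, and this variation was not used to choose them. Each value was taken as its deviation from its group mean, and Pearson's r was computed over the 12 arrays for all 55 pairs of the 11 probes. P-values are from exact permutation within groups (13824 orders, two-sided), adjusted over the 55 pairs with the Benjamini-Hochberg method. 3 pairs passed at 0.05 by r, all positive. One of them was the 2 probes of Rsad2, with r = 0.90 (exact permutation adjusted p = 0.00398), and rho was 0.86.

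Usp18 varied with Mx1, with r = 0.82 and rho = 0.82 (exact permutation p = 0.000362, adjusted p = 0.00995). Without the 2 arrays farthest from the median of Usp18, r was 0.82, and over the 8 injured samples alone it was 0.81. Irf7 varied with Ifit2, with r = 0.88 and rho = 0.84 (exact permutation p = 0.00109, adjusted p = 0.0199), and r was 0.91 without the 2 farthest arrays. By rank, Mx1 with Irf7 passed as well (rho = 0.82, exact permutation adjusted p = 0.0458), though by r it did not (r = 0.85, exact permutation adjusted p = 0.065). The 36 pairs among the 9 probes that are not Rsad2 had r from 0.07 to 0.91, with a median of 0.61. All 36 were thus above 0, although most did not pass the test singly. This shared sign rested in part on single arrays. Without the first bur array and the fourth, r of Mx1 was -0.36 with the brighter Mx2 probe and 0.19 with Isg15. Without the second bur array and the fourth, r of Irf1 with Isg15 was -0.35. Other pairs rose, such as Usp18 with Irf7, from 0.73 to 0.85 without the first control array and the third.

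Rsad2 did not share this pattern. Its brighter probe had an r below 0 with 7 of the 9 probes of other members, from -0.66 to 0.41. Some of these were near 0, at -0.03 with Oasl and -0.06 with Ifit2. The dimmer probe had r on both sides of 0, from -0.565 with Usp18 to 0.28 with the brighter Mx2 probe. The lowest r of the brighter Rsad2 probe was with Usp18 (r = -0.66, rho = -0.60, exact permutation p = 0.0385), which did not pass after adjustment (adjusted p = 0.141). Without the first control array and the third that r was -0.46, so it rests in part on them. The 2 Mx2 probes had an r of 0.61 (exact permutation adjusted p = 0.344), and without the first bur array and the fourth it was 0.09.

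**Figure D3:**
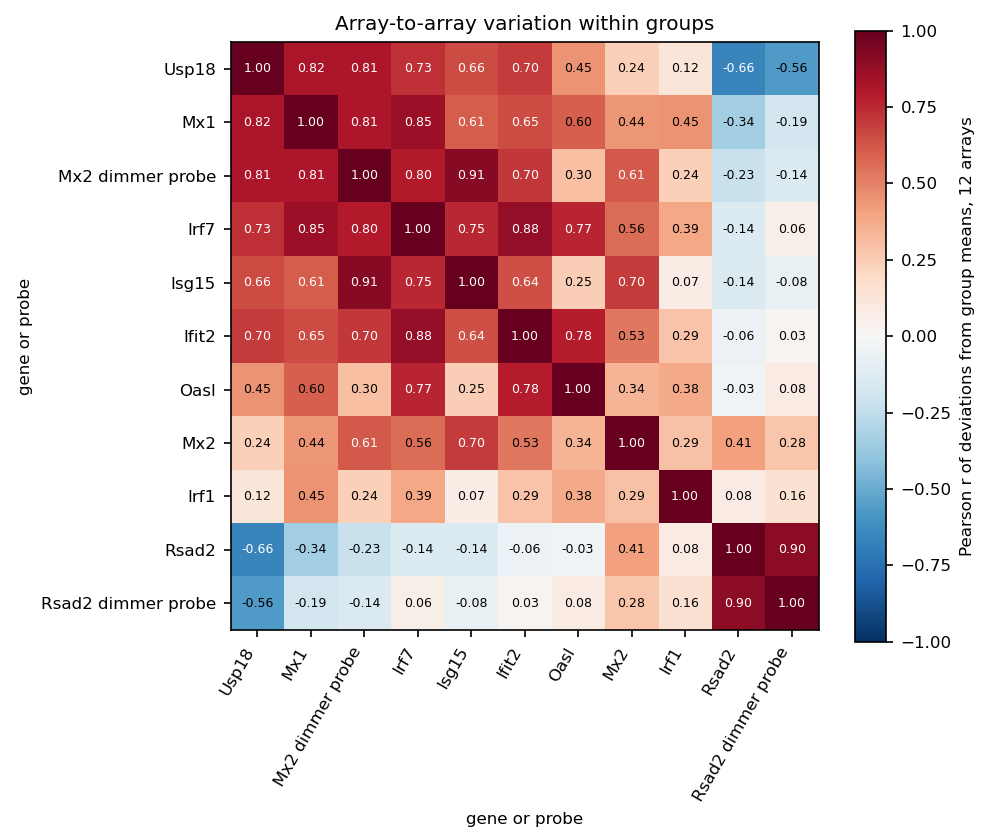
Pearson r between deviations from group means for each pair of the 11 probes over 12 arrays, from blue (-1) to red (1). Usp18, Mx1, the dimmer Mx2 probe, Irf7, Isg15 and Ifit2 form a block of high values, and the 2 Rsad2 probes go with each other and not with that block.

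Markers of blood and marrow cells moved between the groups as well, and in bulk bone fewer cells of a type and less RNA per cell cannot be told apart. Among 11 erythroid markers, 10 were lower in laser bone than in control bone, beside 13% of all genes. In bur bone all 11 were lower, beside 16.2% of all genes (limma adjusted p under 0.05 in each). Their mean level ran from -1.36 to 0.35 on the laser arrays and from -2.02 to 0.23 on the bur arrays, against 0.20 to 2.39 on the control arrays. The lowest control array in this list, the third, was also the lowest in Rsad2. Each of the 11 markers had a probe well above background on all 12 arrays.

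Rsad2 followed the erythroid markers from array to array within groups. The correlation of deviations was r = 0.94 and rho = 0.97 over 12 arrays (exact permutation p = 0.000579, adjusted p = 0.035 over 88 relations of 11 probes with 8 marker lists). Without the third control array r was 0.91, without the first laser array too it was 0.88, and over the 8 injured samples alone it was 0.92. The dimmer Rsad2 probe gave r = 0.90 (exact permutation adjusted p = 0.035). The part of erythroid cells in the Rsad2 difference was not tested.

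Rsad2 also had an r of 0.83 with the neutrophil markers (exact permutation adjusted p = 0.0828), and its dimmer probe one of 0.81 (exact permutation adjusted p = 0.0777). With the T and NK cell markers r was 0.60 for Rsad2 (exact permutation adjusted p = 0.342) and 0.65 for its dimmer probe (exact permutation adjusted p = 0.214). Whether Rsad2 was closer to the erythroid markers than to these was not tested.

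By r, the 2 Rsad2 probes with the erythroid markers were the relations that passed among the 88. By rank, Irf1 with the osteocyte and osteoblast markers passed as well (rho = -0.81, exact permutation adjusted p = 0.0446), while its r of -0.80 did not (exact permutation adjusted p = 0.0777). Usp18 had an r of -0.73 with the erythroid markers (exact permutation adjusted p = 0.214). Mx1 had an r of -0.73 with the B cell markers (exact permutation adjusted p = 0.0777). With the macrophage and monocyte markers its r was 0.80 (exact permutation adjusted p = 0.152). Against control, 3 of 12 such markers were higher in laser bone and 5 in bur bone, beside 9.26% and 9.99% of all genes. None of these markers was lower. Their mean level ran from -0.04 to 0.64 on the laser arrays and from -0.22 to 0.79 on the bur arrays, against -0.91 to -0.14 on the control arrays. Their part in the levels of Usp18, Oasl, Mx1 and Isg15 was not tested.

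Of the other lists, 4 of 9 neutrophil markers were lower in laser bone and 3 in bur bone than in control bone. Of 9 B cell markers 3 and 4 were lower, in laser and in bur bone. Of 13 T and NK cell markers, 6 were lower and 1 higher in laser bone, and 5 were lower and 2 higher in bur bone. Of 7 markers of plasmacytoid dendritic cells, a major source of type I interferon, 2 were higher in laser bone and 1 in bur bone. Of 7 endothelial markers, 1 was lower in laser bone and 2 in bur bone. Of the 10 osteocyte and osteoblast markers 5 were higher in laser bone and none in bur bone. Over all genes 9.26% were higher and 13% lower in laser bone, and 9.99% higher and 16.2% lower in bur bone. The endothelial share lower in laser bone and the dendritic cell share higher in bur bone, 14.3% each, were near these, so nothing is read from them. The dendritic cell list shares Bst2, Tlr7 and Tlr9 with the interferon lists below.

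**Figure D4:**
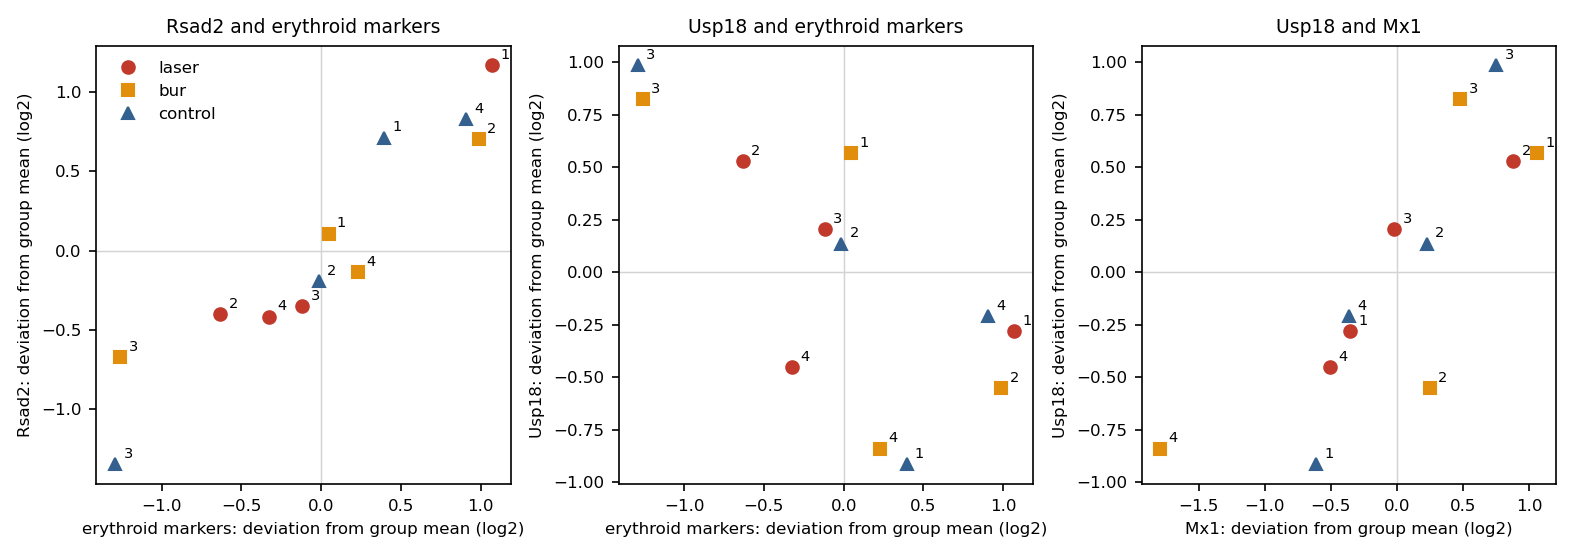
Deviations from the group mean (log2) on 12 arrays, numbered by replicate. Rsad2 (left) rises with the mean of the 11 erythroid markers (r = 0.94), Usp18 (middle) runs against it without passing the test (r = -0.73), and Usp18 rises with Mx1 (right, r = 0.82).

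The genes most like 3 of the members over all 12 arrays were found by Pearson's r of log2 values. They were taken from the genes tested that carried a current RefSeq symbol, with provisional and clone names left out. Nearest to Usp18 were Parp12 (0.987), Ddx60 (0.964), Parp14 (0.951), Ascc3 (0.948) and Fbxw17 (0.947). Parp12, Ddx60 and Parp14 are themselves interferon-induced. Nearest to Oasl were Sh2d1b (0.965), Zc3h12a (0.962), Ephb1 (0.954), Pdcd1lg2 (0.945) and Map2k1 (0.932). Nearest to Rsad2 were Bpgm, Rnls and Unc13d (0.993 each) and Ccnd3 and Rbm38 (0.992 each). Bpgm makes the molecule that lowers the oxygen affinity of haemoglobin in red cells. These r values include the difference between groups, so they describe likeness in these 12 arrays.

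The wider interferon pathway was examined in 8 lists, members left out, with 131 of 147 listed genes tested. Against control, 20 were higher and 8 lower in laser bone, where 9.26% of all genes were higher and 13% lower. In bur bone 20 were higher and 11 lower, where 9.99% of all genes were higher and 16.2% lower. The share of the 131 that was higher was thus 15.3% in both, and the share lower was 6.11% in laser and 8.4% in bur bone. Among the higher genes, Cxcl11, Socs1 and Ifna1 in laser bone and Cxcl11 in bur bone passed the detection filter only through injured bone. Their side was thus set in part by the filter. The median difference of the 131 was 0.15 in laser bone and 0.16 in bur bone. No gene of the lists differed between laser and bur bone in limma's test. Without the third control array the counts of calls were 50 in laser bone and 51 in bur bone, without the third laser array 2 in laser bone, and without the first control array 4 in laser bone and 10 in bur bone.

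Of 11 listed interferon ligands, 9 were on the array and 4 passed the detection filter. Ifna1 was well above background on 3 of 4 laser arrays, on all 4 bur arrays and on none of the control arrays, so it passed the filter only through injured bone. It was at least 1.58-fold higher in laser bone (limma adjusted p = 0.0292) and at least 1.20-fold higher in bur bone without passing (limma adjusted p = 0.155). With normexp its laser difference was -0.07, the opposite sign. Its bounds thus hold only for the background correction of the scanner software, and no direction is drawn for it. In bur bone none of the 4 passed, and the smallest p was that of Ifna4, at -0.27 (limma adjusted p = 0.147). Among 9 receptors and Janus kinases, Jak2 was 0.60 higher in laser bone (SE 0.14, limma adjusted p = 0.0188) and 0.59 higher in bur bone (SE 0.14, limma adjusted p = 0.0139). Ifnar1, a chain of the type I receptor, was 0.75 higher in bur bone (SE 0.23, limma adjusted p = 0.033), and Il10rb, a chain of the type III receptor, was 0.60 higher there (SE 0.19, limma adjusted p = 0.0395). In laser bone neither passed, with Ifnar1 at 0.47 (limma adjusted p = 0.146) and Il10rb at 0.45 (limma adjusted p = 0.109).

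Of 9 STAT and IRF factors 1 passed, in both kinds of injured bone. Irf9, a DNA-binding part of the complex that type I interferons activate, measured 1.81, 1.18, 1.29 and 1.46 on the laser arrays and 1.48, 1.23, 1.30 and 0.78 on the bur arrays. On the control arrays it measured 2.65, 2.08, 1.66 and 2.66, so all bur arrays lay below them and the first laser array overlapped. Irf9 was 0.83 lower in laser bone (SE 0.25, limma adjusted p = 0.0357) and 1.06 lower in bur bone (SE 0.25, limma adjusted p = 0.0128). None of the 5 ISG15 conjugation genes passed. Herc6, known in mice as a ligase that attaches ISG15, had the smallest p, at 0.81 in laser bone (limma adjusted p = 0.0929) and 0.56 in bur bone (limma adjusted p = 0.218).

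Of 16 sensors of nucleic acids and their adaptors, 5 were higher and none lower in laser bone, and 4 were higher and 1 lower in bur bone. Dhx58, a relative of the RNA sensor RIG-I, was 1.07 higher in laser bone (SE 0.33, limma adjusted p = 0.0402) and 1.06 higher in bur bone (SE 0.33, limma adjusted p = 0.0363). Tlr7, an endosomal receptor for single-stranded RNA, was 1.0 higher in laser bone (SE 0.27, limma adjusted p = 0.0282) and 0.90 higher in bur bone (SE 0.27, limma adjusted p = 0.0335). In laser bone Ddx58, the gene of RIG-I, was 0.89 higher and Mb21d1, the gene of the DNA sensor cGAS, was 0.86 higher. In bur bone they differed by 0.73 (limma adjusted p = 0.0617) and 0.51 (limma adjusted p = 0.132). Once replicates were blocked Ddx58 no longer passed in laser bone (limma adjusted p = 0.0523). Tlr8 was 1.11 higher in bur bone, and in laser bone it differed by 0.89 without passing (limma adjusted p = 0.105). The adaptor Ticam1 was higher in both, by 0.75 in laser bone and 0.81 in bur bone, though with normexp it was at -0.10 in bur bone.

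The 49 antiviral effectors tested held genes on both sides of control, with 8 higher and 3 lower in laser bone and 8 higher and 4 lower in bur bone. Tor3a, an interferon-induced ATPase, measured -3.44, -3.07, -3.24 and -3.26 on the laser arrays and -3.30, -3.62, -3.35 and -3.47 on the bur arrays, against -5.07, -4.24, -3.87 and -4.84 on the control arrays. All injured samples lay above all control samples. Tor3a was 1.25 higher in laser bone (SE 0.23, limma adjusted p = 0.00922) and 1.07 higher in bur bone (SE 0.23, limma adjusted p = 0.0104). Ifitm3, which keeps viruses from fusing with cell membranes, was 1.21 higher in laser bone (SE 0.34, limma adjusted p = 0.0312) and 1.18 higher in bur bone (SE 0.34, limma adjusted p = 0.0278). Ifi27 was higher in both, by 1.01 in laser bone (limma adjusted p = 0.0357) and 1.29 in bur bone (limma adjusted p = 0.0128). Ddx60 was 1.54 higher in laser bone (limma adjusted p = 0.0378), and in bur bone it differed by 1.26 without passing (limma adjusted p = 0.0662).

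On the falling side Ifit1bl, a relative of Ifit2, measured 0.38, -0.35, -0.64 and -0.14 on the laser arrays and -0.71, 0.20, -0.81 and -0.31 on the bur arrays, against 1.91, 1.53, 0.37 and 2.6 on the control arrays. As in Rsad2, the third control array was the lowest of its group and the first laser array the highest of its own. Ifit1bl was 1.79 lower in laser bone (SE 0.42, limma adjusted p = 0.0183) and 2.01 lower in bur bone (SE 0.42, limma adjusted p = 0.00893). Cmpk2, an interferon-induced mitochondrial kinase whose gene neighbours Rsad2 in GRCr8, was 1.23 lower in bur bone (SE 0.39, limma adjusted p = 0.0392). In laser bone Cmpk2 differed by -0.88 and did not pass (limma adjusted p = 0.121).

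Of 27 genes linked to interferon gamma, 4 were higher and 2 lower in laser bone, and 3 were higher and 2 lower in bur bone. The higher genes include Cxcl11 in both and Socs1 in laser bone, whose side was set in part by the detection filter. Cxcl10, a chemokine that draws T cells, measured -1.16, 0.19, -1.45 and -2.15 on the laser arrays and -0.81, -2.37, -1.91 and -3.44 on the bur arrays, against -5.01, -3.37, -1.99 and -4.08 on the control arrays. It was 2.47 higher in laser bone (SE 0.71, limma adjusted p = 0.0322), and in bur bone it differed by 1.48 without passing (limma adjusted p = 0.137). The difference between laser and bur bone was 0.99 for Cxcl10 (limma adjusted p = 0.9998), so no contrast between them is shown.

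Cxcl11, a chemokine for the same receptor, was at least 2.66-fold higher in laser bone, where 3 of 4 arrays detected it, and at least 1.78-fold higher in bur bone, where 2 did. No control array detected it. With normexp Cxcl11 was at 0.15 in laser bone, no longer passing, and at -0.15 in bur bone. Socs1, an inhibitor of Janus kinases, was at least 1.56-fold higher in laser bone, with a sign change to -0.05 under normexp, and in bur bone it was at least 1.23-fold higher without passing (limma adjusted p = 0.0548). The bounds of Cxcl11 and Socs1 thus hold only for the background correction of the scanner software. Neither gene was detected in control bone, so both passed the filter only through injured bone. Ifi30 was higher in both, by 0.64 in laser bone and 0.73 in bur bone. Icam1 was 0.90 higher in bur bone, and in laser bone it differed by 0.82 without passing (limma adjusted p = 0.0702). Nlrc5, which drives class I antigen presentation genes, was 0.70 lower in laser bone (limma adjusted p = 0.0434, but 0.0636 once replicates were blocked) and 0.75 lower in bur bone (limma adjusted p = 0.0306).

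Among 12 inhibitors of interferon signalling, 1 was higher and 2 lower in laser bone, and 2 were higher and 3 lower in bur bone. Socs3, which blocks receptor-bound Janus kinases, measured 0.11, 0.14, 0.33 and 0.19 on the laser arrays and 0.20, 0.44, 0.71 and -0.15 on the bur arrays, against -0.77, -0.54, -0.53 and -1.41 on the control arrays. All injured samples lay above all control samples. Socs3 was 1.01 higher in laser bone (SE 0.22, limma adjusted p = 0.0161) and 1.11 higher in bur bone (SE 0.22, limma adjusted p = 0.00801). Pias4, an inhibitor from the PIAS family, was 0.68 lower in laser bone (limma adjusted p = 0.0183) and 0.82 lower in bur bone (limma adjusted p = 0.00688). Ptpn1, a phosphatase of Janus kinases, was 0.69 lower in laser bone and 0.81 lower in bur bone. Trex1, a DNase that clears DNA before it is sensed, was 0.91 higher in bur bone (limma adjusted p = 0.0438), and in laser bone it differed by 0.86 without passing (limma adjusted p = 0.0589).

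Many of these calls depended on single arrays. Only the calls named by the rule for the lists were checked, each in its own comparison. When each of the 12 arrays was left out in turn, Tor3a and Socs3 kept their calls in laser bone every time. Ifit1bl, Ifi27, Socs3, Pias4, Irf9 and Jak2 kept theirs in bur bone. The bur call of Tor3a and the laser calls of Ifi27, Ifi30 and Ticam1 were not checked in this way. Of the 18 named calls in laser bone, 16 were lost without the third laser array and 15 each without the second laser array or the first control array. Of the 20 in bur bone, 14 were lost without the first control array, 12 without the fourth control array and 11 each without the first bur array or the third. The highest adjusted p among them was 0.114 in laser bone, for Dhx58 without the first control array, and 0.136 in bur bone, for Tlr8 without the same array.

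**Figure D5:**
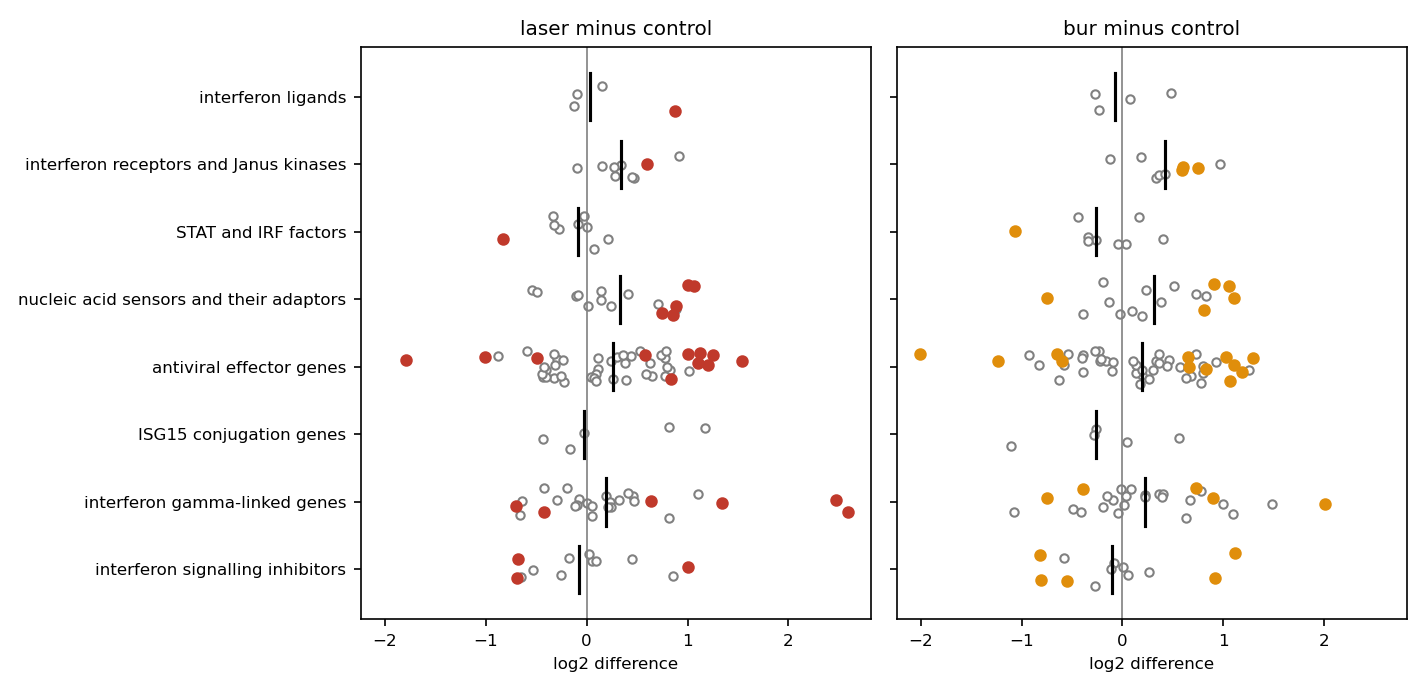
Log2 differences from control of the 131 tested genes in 8 interferon pathway lists, members left out, in laser bone (left) and bur bone (right). Filled points passed limma's test at an adjusted p of 0.05, open points did not, and black lines are list medians. Passing genes lie on both sides of 0 in the effector, gamma-linked and inhibitor lists.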

How the data were processed

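RNA of 12 rat calvaria samples was labelled with Cy3 from 200 ng, per the labels' protocols, and hybridised to 1-colour Agilent arrays. The authors deposited scanner output as spot intensity. Per the file headers, the software was Feature Extraction 11.0.1.1 of Agilent with protocol GE1_1100_Jul11. That intensity is background-subtracted and detrended within each array, per the file headers, with no step between arrays. A deposited table holds log2 values that its name calls quantile-normalized. Deposited comparison tables hold log2 differences, p-values and test statistics (score columns), made by the authors with limma-style column names per the file headers. Further steps are not given in the sources used here.

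Here, log2 intensity was used, less the 75th percentile of non-control spots on that array. Flagged outlier spots were left out, spots of a probe averaged, and probes kept that were well above background on at least 4 of 12 arrays (29775 probes). No spot was saturated, and 58.1 to 67.0% of probes were well above background per array. The brightest probe stood for each of 22718 genes. limma 3.58.1 in R 4.3.3 (lmFit and eBayes, two-sided, Benjamini-Hochberg over all genes, threshold 0.05) was fitted to all 12 arrays. The script was tested on simulated data. A gene that no array of 1 group detected has a bound for its change, which holds only for the background correction of the scanner software. Each array of that group then counts at the lowest signal well above background, or at the probe's signal if that was higher.

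The members and all gene lists were chosen with earlier results of these data known. Named pathway genes are up to 4 per list and comparison with control with the biggest passing change, or the smallest p where none passed. Separate animals are not stated in the labels, so the p-values stand for differences among these samples and may reflect technical spread alone. Correlations between the deviations of same-numbered arrays were mostly above 0, at 0.25, 0.24, 0.16 and 0.34 between laser and bur. Between laser and control they were 0.34, 0.18, 0.22 and 0.13. Bur with control gave 0.28, -0.05, 0.28 and 0.083. Arrays of different number ran from -0.43 to 0.32, both between bur and control. The limma tests reported above used no pairs, with a mean per group and no replicate block. The permutations within groups did not use the replicate number either. A replicate block was fitted only as an alternative. The number is also the column on the slide, so pairing and column cannot be told apart. Alternatives covered background correction, scaling, the detection filter, the probe per gene, the replicate block, the samples in the fit, the deposited table and leaving out each array.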

Additional observations from a re-analysis of the deposited data

Results flagged for a closer look

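In each group of 4 arrays, 33 groups of values for the members' probes and 102 for the named pathway genes were checked for a sample far from the rest, by the gap to its nearest neighbour over the range, against Dixon's 95% critical value for 4 samples. Chance alone picks out about 1 group in 20. Of the members' groups 1 stood out. Rsad2 measured 3.03 on the first laser array, with its nearest neighbour at 1.51, a gap of 0.958 of the range, and that array was also the highest of its group in the erythroid markers. Of the other groups 3 stood out. Ifi27 measured 1.92 on the third control array, nearest to 1.02 (0.858 of the range). Pias4 measured -0.24 on the first laser array, nearest to -0.68 (0.875 of the range). Uba7, the enzyme that activates ISG15, measured 4.72 on the fourth laser array, nearest to -2.04 (0.962 of the range). Uba7 had the smallest p of its list between laser and bur bone, at 2.27 without passing (limma adjusted p = 0.9998), and without that array the difference was 0.55.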

How the results depend on the processing

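Each comparison was repeated with alternatives that changed 1 choice at a time, except the deposited table, which differs in scaling and also in the genes tested (20522 against 22718). Between laser and bur bone the count of genes called stayed at 0, except that it was 1 without the detection filter, and no interferon gene was called under any alternative. Against control the 5061 genes called in laser bone became 3172 without the detection filter and 1758 with only the 2 groups fitted, and ran from 1235 (without the first control array) to 7995 (without the third) when arrays were left out. The 28 pathway genes called in laser bone became 11 without the filter and 10 with only the 2 groups, and ran from 2 to 50. In bur bone the 5948 genes ran from 2777 to 8389 when arrays were left out, and the 31 pathway genes became 16 with only the 2 groups fitted and ran from 10 to 51. With the replicate block the counts were 5771 in laser bone and 6578 in bur bone, and 36 and 42 pathway genes. Among the named calls checked, the block ended those of Nlrc5 and Ddx58 in laser bone and no other. Normexp shifted the median of all genes to -0.08 in laser bone and -0.24 in bur bone. Under it 4 dim genes changed sign among the named calls checked. They were Socs1 (-0.048) and Ifna1 (-0.073) in laser bone, and Cxcl11 (-0.147) and Ticam1 (-0.097) in bur bone. The cause was not tested. Among the members, Usp18 ran from 1.5 to 1.99 and Rsad2 from -2.43 to -1.79 in laser bone over the alternatives that kept all arrays. With arrays left out they ran from 1.64 to 2.27 and from -2.88 to -2.15. Mx2 changed sign against control when its probes were averaged, to 0.74 in laser bone and 0.48 in bur bone. The correlations of Usp18 with Mx1, of Irf7 with Ifit2 and of Rsad2 with the erythroid markers passed at an unadjusted exact permutation p of 0.05 under each alternative that gave one. With the replicate block they were 0.858, 0.836 and 0.909. For other single genes and relations 1438 values kept their side of the threshold or their size, 214 lost the call, 3 gained it and 6 moved. Signal over background limits what can be said of Oasl, Cxcl11, Socs1 and Ifna1.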

Other observations

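The array-to-array variation of other interferon genes within groups was examined after the data were seen, for each of 131 tested pathway genes against Usp18, Rsad2 and the mean of the erythroid markers (393 relations over 12 arrays, exact permutation within groups, adjusted over the 393). With Usp18, 6 genes passed, all with a positive r. These were Parp12 (0.966), Ddx60 (0.939), Ifi44l (0.90), Oas2 (0.894), Trex1 (0.889) and Tlr7 (0.856), each at an exact permutation adjusted p of 0.0462. The share over all genes was not computed, so nothing particular to interferon genes is read from the count. Oas2 makes the short nucleotide chains that activate RNase L, and Ifi44l is an interferon-induced gene. Oas2 and Ifi44l did not pass against control in either kind of injured bone.

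With Rsad2, 1 gene passed, Plscr1, a membrane lipid scramblase that interferon induces (r = 0.891, exact permutation adjusted p = 0.0462). Ifit1bl was close behind (r = 0.90, exact permutation adjusted p = 0.0531) and was the gene that passed with the erythroid markers (r = 0.873, exact permutation adjusted p = 0.0462). Cmpk2, the neighbour of Rsad2 in the genome, had an r of 0.677 with it and did not pass (exact permutation adjusted p = 0.254). The median r over the 131 genes was 0.30 with Usp18 and -0.05 with Rsad2. The medians over all genes were not computed, so these values are a description only.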
